A study of Mus musculus with 165 samples.

Results

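The 96h sample of neutrophil differentiation in PUER cells was set against the samples taken 8 h before and 8 h after it. It consisted of 2 libraries, replicates 1 and 2 of GCSF-OHT 96h, in a series of 56 groups of treatment and time, and it was compared with the mean of GCSF-OHT 88h (3 libraries) and GCSF-OHT 104h (3 libraries). The members were chosen by these sample labels, not by any measured value. PUER is a mouse bone-marrow myeloid progenitor line that lacks the gene for PU.1 (Spi1-/-) and carries a fusion of PU.1 with the hormone-binding part of the estrogen receptor, which 4-hydroxy-tamoxifen (OHT) activates. All 8 libraries came from this line, which had been held in GCSF at 10 ng/ml for 48 h and then given 100 nM OHT at 0h. Cells kept in IL3 at 5 ng/ml and given 200 nM OHT formed the parallel macrophage course. In both courses part of the medium was replaced and OHT was added again at 40h, 88h and 136h, so that 96h came 8 h after the renewal at 88h. The sources used here do not say whether the 88h wells were harvested before or after that renewal. Each time point was grown on a plate of its own, so time, plate and time since renewal cannot be told apart. Replicates were wells of a single line, and p-values measure only the spread between such wells.

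Several of the genes described here belong to the hypoxia response. Prolyl hydroxylases mark the alpha subunits of the hypoxia-inducible factors (HIFs) for destruction when oxygen is present. When oxygen falls, the HIFs accumulate and raise transcription of genes for glucose uptake, glycolysis, mitochondrial removal and blood vessel growth, and of the hydroxylases themselves. Myeloid cells rely strongly on glycolysis, and neutrophils keep few mitochondria. Ribosome biogenesis, the other group described at length, makes and assembles ribosomal RNA and protein and is typically high in growing cells.

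ACGTG is a form of the core letters at which the HIFs bind DNA. The upstream sequences of 6 genes with large changes, from the 3 groups, are printed here to show these letters with and without a match. Other forms of the core were not marked, so a sequence without capitals may still hold one. Each line gives the 250 bases before the most upstream RefSeq start of the gene, 5′ to 3′ on the gene's strand, in build GRCm38.p6. Capitals mark ACGTG on either strand, and a run of 6 capitals is an overlap of a match on each strand.
P4ha2, chr11:54100674-54100923, strand plus: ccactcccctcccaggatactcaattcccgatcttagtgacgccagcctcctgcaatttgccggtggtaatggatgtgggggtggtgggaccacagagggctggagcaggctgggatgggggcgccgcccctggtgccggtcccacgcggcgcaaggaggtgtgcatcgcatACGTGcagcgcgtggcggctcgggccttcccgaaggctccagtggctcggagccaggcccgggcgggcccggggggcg
Bnip3, chr7:138909507-138909756, strand minus: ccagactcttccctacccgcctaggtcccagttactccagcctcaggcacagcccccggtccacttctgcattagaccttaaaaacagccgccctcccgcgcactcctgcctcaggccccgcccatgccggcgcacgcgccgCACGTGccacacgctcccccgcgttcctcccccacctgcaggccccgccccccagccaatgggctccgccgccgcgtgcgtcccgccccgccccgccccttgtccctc
Pgk1, chrX:106186850-106187099, strand plus: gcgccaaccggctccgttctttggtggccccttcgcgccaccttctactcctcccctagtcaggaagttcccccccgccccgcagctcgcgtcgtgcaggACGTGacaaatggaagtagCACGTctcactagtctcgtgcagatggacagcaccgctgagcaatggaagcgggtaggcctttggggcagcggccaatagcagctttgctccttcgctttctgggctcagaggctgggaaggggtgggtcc
Ldha, chr7:46845554-46845803, strand plus: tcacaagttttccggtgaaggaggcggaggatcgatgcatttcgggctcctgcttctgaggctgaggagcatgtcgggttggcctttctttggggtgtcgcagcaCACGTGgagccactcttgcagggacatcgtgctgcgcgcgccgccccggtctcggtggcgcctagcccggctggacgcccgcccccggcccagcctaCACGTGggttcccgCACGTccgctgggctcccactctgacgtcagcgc
Tpi1, chr6:124814159-124814408, strand minus: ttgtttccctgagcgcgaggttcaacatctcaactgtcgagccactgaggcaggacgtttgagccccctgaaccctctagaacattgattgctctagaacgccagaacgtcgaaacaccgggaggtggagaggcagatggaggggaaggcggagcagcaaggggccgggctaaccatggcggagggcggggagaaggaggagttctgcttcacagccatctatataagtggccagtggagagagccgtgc
Utp20, chr10:88826815-88827064, strand minus: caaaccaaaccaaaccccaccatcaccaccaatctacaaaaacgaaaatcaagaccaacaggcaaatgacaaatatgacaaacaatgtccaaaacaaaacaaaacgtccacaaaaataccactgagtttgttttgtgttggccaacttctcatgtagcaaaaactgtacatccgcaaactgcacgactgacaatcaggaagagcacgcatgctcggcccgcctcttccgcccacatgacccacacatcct

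On either strand, ACGTG stood in the 250 bases of 7 of the 15 hypoxia response genes matched to a promoter and of 9 of 20 matched glycolysis genes. It stood in 4 of 9 matched ERK feedback genes, 5 of 18 matched immediate-early genes and 4 of 35 matched ribosome biogenesis genes, so a high share was not limited to hypoxia and glycolysis genes. Over all 27025 genes with a promoter the share was 16.5%. That share was not matched for base composition. The letters CCGCCC stood in 14 of 15 hypoxia, 12 of 20 glycolysis and 20 of 35 ribosome biogenesis promoters, against 33.0% of all promoters. Among genes lower at 96h ACGTG was found in 97 of 437 (22.2%), and among genes higher at 96h in 14.96%. These letters were chosen with the results known, and a match is a description of the sequence only.

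The 8 libraries held between 19743664 and 33147945 reads on genes. The library of 33147945 reads, replicate 3 of 104h, stood apart from its mates. A chi-square statistic per gene of 47.5 and 68.5 separated it from replicates 1 and 2, against 3.25 to 6.10 for the other pairs of replicates within the 3 groups. It differed from them more than 2-fold in at least 94 genes each, against 11 to 26 genes for the other pairs. Its values fell with transcript length. Relative to its mates its median log2 value was 0.13 for genes with a longest transcript of up to 1000 bases and -0.34 for the 571 genes over 8000 bases, while replicates 1 and 2 differed by -0.03 and -0.02 in these classes. The main counts below are therefore also given without this library, as are the list counts that it changed.

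More genes were lower than higher at 96h. Of 17439 genes tested, 811 passed against the mean of the neighbours, 616 (3.53%) of them lower and the rest (1.12%) higher (limma, Benjamini-Hochberg adjusted p under 0.05, with a log2 fold change beyond 0.58 either way on the scale of log2(normalized count + 1), which understates the change of low genes). Since that comparison can also pass where 96h differs from 1 neighbour alone, both neighbours were then required: 396 genes (2.27%) were lower than both 88h and 104h and 72 (0.413%) were higher than both. The neighbours differed from each other in 95 genes (0.545%). Without replicate 3 of 104h, 689 genes (3.95%) were lower and 1.21% of the genes were higher. Of the 689, 588 were also called with it. Without replicate 2 of 96h the share of genes higher was 0.648%. Leaving out single libraries moved the share that differed between the neighbours from 0.247%, without replicate 3 of 104h, to 1.42%, without its replicate 2, and it was 0.992% without its replicate 1, 0.327% without replicate 2 of 88h and 0.350% without replicate 3 of 88h. Both 96h libraries lay below all 6 neighbouring libraries in 11.6% of the genes and above all 6 in 11.7%. The median of all genes tested did not shift (log2 difference 0).

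**Figure D1:**
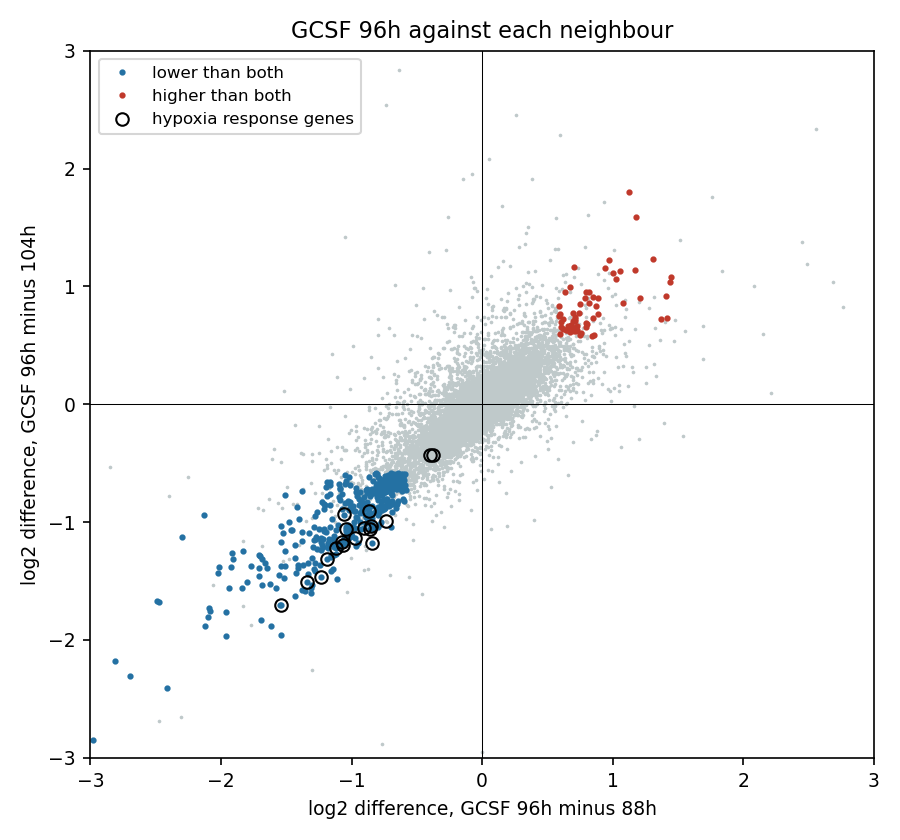
Log2 difference of GCSF 96h from 88h (horizontal axis) and from 104h (vertical axis). Genes tested are shown where their mean normalized count over the 8 libraries was at least 10. Blue points are genes lower than both neighbours and red points genes higher than both (396 and 72 before this filter). Open circles are the 18 hypoxia response genes, all of which lie at the lower left; axes end at 3 and -3.

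Hypoxia response genes were lower at 96h almost throughout. Of 18 listed genes, all tested, 15 were lower at 96h and none was higher, with a median log2 difference of -1.03 and a range from -1.62 to -0.40. In all 18 genes both 96h libraries lay below all 6 neighbouring libraries. Of the 15, 14 were lower than both neighbours taken singly, and 15 were lower without replicate 3 of 104h.

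P4ha2 encodes a subunit of the enzyme that hydroxylates proline in collagen. Its normalized counts were 1530, 1514 and 1560 in the 88h libraries, 663 and 418 in those of 96h, and 1743, 1713 and 1696 in those of 104h. It fell to 32.5% of its neighbours (log2 difference -1.62, SE 0.16, limma adjusted p = 1.5e-14), and both 96h libraries were far below the other 6. Bnip3, whose product directs mitochondria to autophagy, gave 11419, 10405 and 10920 in the 88h libraries, 5856 and 3680 in those of 96h, and 11882, 11497 and 15551 in those of 104h. Here the library of 15551 was replicate 3 of 104h, and the log2 difference was -1.35 (SE 0.18) with it and -1.28 without it.

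The HIF prolyl hydroxylase genes Egln1 and Egln3 fell together. A further one, Egln2, tested in a list chosen after values had been seen, was not called. Egln1 (PHD2) measured 10771, 10952 and 11125 in the 88h libraries, 5414 and 4246 in those of 96h, and 11554, 13344 and 11039 in those of 104h. Egln3 (PHD3) measured 27939, 28080 and 27939 in the 88h libraries, 16202 and 11024 in those of 96h, and 29651, 31041 and 30859 in those of 104h. Their log2 differences were -1.25 (SE 0.13) and -1.13 (SE 0.13). Pdk1, a kinase that keeps pyruvate out of the mitochondrion, fell to 44.5% of its neighbours, and Vegfa, the vascular growth factor, fell to 48.3%. Replicate 2 of 96h was lower than replicate 1 in each of these genes. Over the list, the median log2 difference from the mean of 88h was -0.75 in replicate 1 and -1.21 in replicate 2.

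Adm, Kdm3a and Narf did not pass. Adm, a vasodilator peptide gene, was near the low end of what was measured, with 17.6 and 17.7 at 96h against 33.3 to 43 in the other 6 libraries (log2 difference -0.997, SE 0.44, adjusted p = 0.097). Kdm3a and Narf had log2 differences of -0.41 (SE 0.09) and -0.40 (SE 0.09), with small p-values but less than the fold required. The genes for the HIF subunits themselves were measured too, in a list chosen after values had been seen. Hif1a had a log2 difference of 0.04 (SE 0.07) and was not called, while Hif3a was called lower, with -0.92 (SE 0.17). Transcripts do not report the amount of HIF protein.

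**Figure D2:**
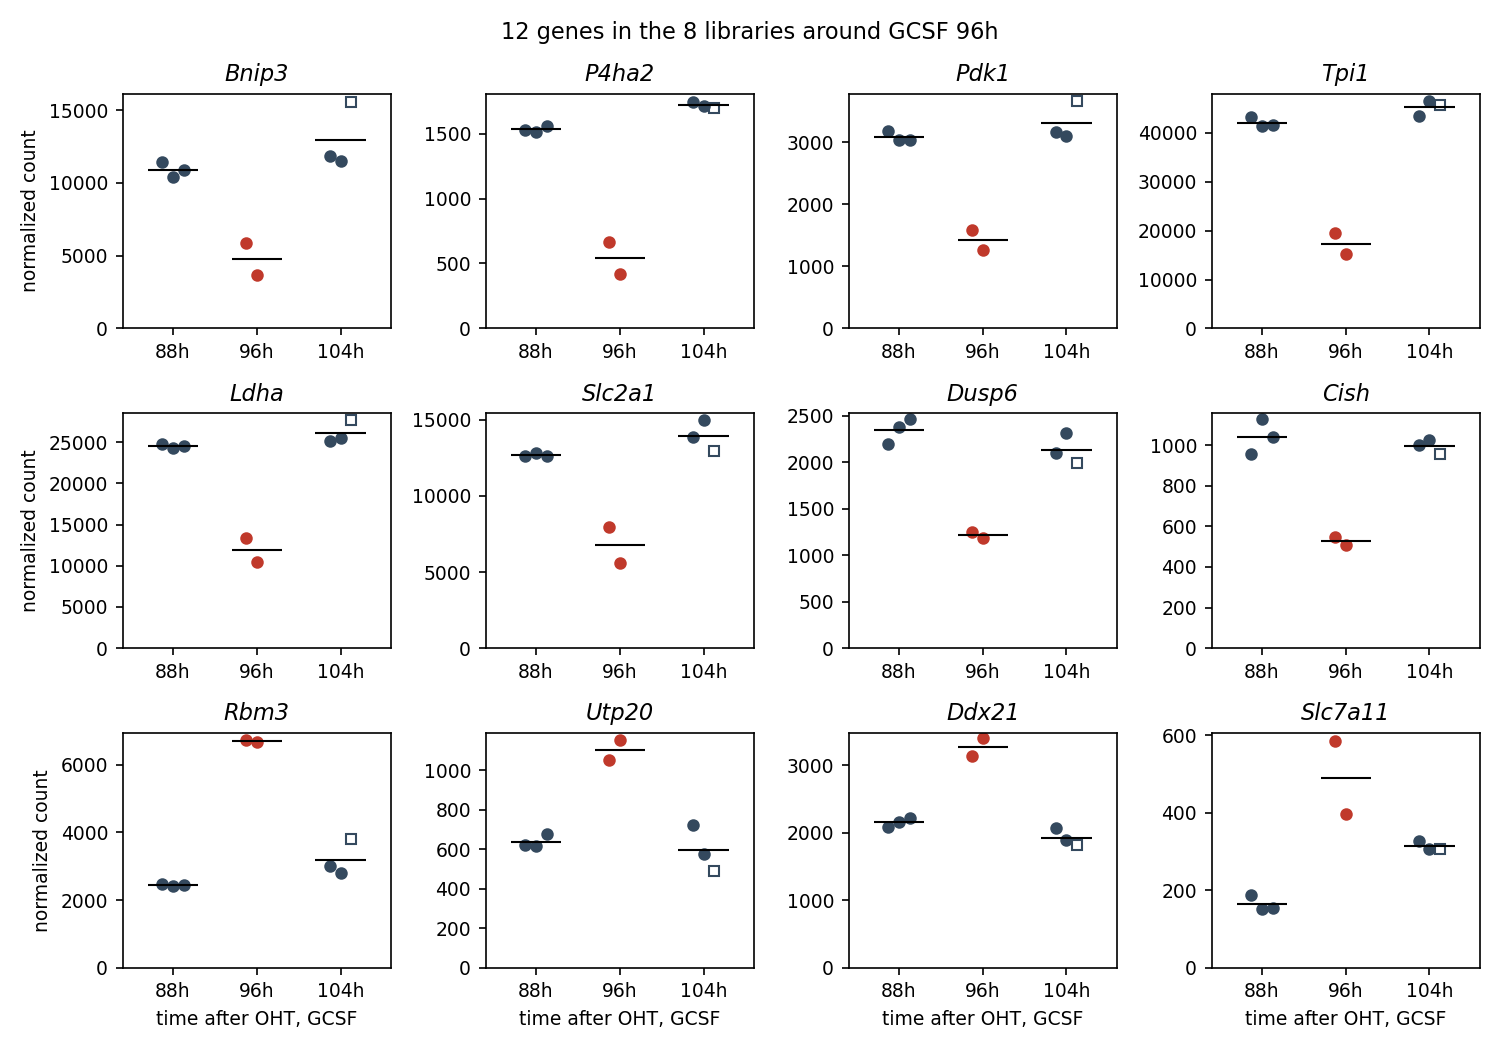
Normalized counts (vertical axes, from 0) of 12 genes in each library of GCSF 88h, 96h (red) and 104h; the open square is replicate 3 of 104h and bars are group means. Both 96h libraries lie below the other 6 in Bnip3, P4ha2, Pdk1, Tpi1, Ldha, Slc2a1, Dusp6 and Cish, and above them in Rbm3, Utp20, Ddx21 and Slc7a11.

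The glycolytic pathway was lower along most of its length. Of 21 glycolysis enzymes and transporters, 14 were lower and none was higher, with a median log2 difference of -0.78, and in 17 both 96h libraries lay below all 6 neighbours. Of these genes 13 were lower than both neighbours singly, and 15 were lower without replicate 3 of 104h. Tpi1, the triose phosphate isomerase, measured 43180, 41450 and 41656 in the 88h libraries, 19572 and 15143 in those of 96h, and 43552, 46488 and 45747 in those of 104h. Its 96h level was 39.5% of its neighbours (log2 difference -1.34, SE 0.12, limma adjusted p = 9.8e-18).

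Glucose entry and lactate formation were both among the genes that fell. Slc2a1, the glucose transporter GLUT1, measured 12600, 12833 and 12657 in the 88h libraries, 7963 and 5610 in those of 96h, and 13907, 14971 and 12966 in those of 104h. Ldha, the lactate dehydrogenase A subunit, measured 24801, 24341 and 24581 in the 88h libraries, 13397 and 10457 in those of 96h, and 25149, 25509 and 27661 in those of 104h. The 96h levels were 50.3% and 46.8% of the neighbours. Gapdh, often used as a reference gene, fell to 59.7% (log2 difference -0.75, SE 0.09). The lactate exporter gene Slc16a3 had a log2 difference of 0.01 (SE 0.20), and Pfkfb3, which makes an activator of phosphofructokinase, had 0.25 (SE 0.06), so neither was called.

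Lipid synthesis genes moved less, and the number of cholesterol genes that passed the test rested on which 96h library was used. Of 23 cholesterol synthesis and uptake genes, 7 were lower (Fdps, Lss, Mvd, Sqle, Srebf2, Fdft1 and Nsdhl), with a median log2 difference of -0.48. Without replicate 3 of 104h the count was 5. Without replicate 2 of 96h the count was 2, and without replicate 1 it was 13. The direction was more even than these counts: 22 of the 23 cholesterol differences were below 0. In 21 of them both 96h libraries lay below all 6 neighbours, and 4 genes were lower than both neighbours singly. Of 13 fatty acid synthesis genes, 4 were lower, Me1 (-0.79), Fads2 (-0.74), Elovl6 (-0.65) and Scd2 (-0.60).

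Some transcripts that respond quickly to cytokine and kinase signals were lower, although most members of these lists did not pass. Of 10 ERK feedback genes tested, 5 were lower, with a median of -0.54, but only 1 was lower than both neighbours singly. The count of 5 became 4 without replicate 3 of 104h and 3 with only the compared groups fitted. Without replicate 2 of 96h the median was -0.53. Dusp6, the phosphatase that acts on ERK, measured 2198, 2378 and 2463 in the 88h libraries, 1250 and 1187 in those of 96h, and 2096, 2313 and 1992 in those of 104h (log2 difference -0.87, SE 0.07, limma adjusted p = 1.0e-20). Of 12 STAT targets 3 were lower, Cish (-0.94), Socs2 (-0.77) and Socs3 (-0.61), which encode inhibitors of cytokine receptor signalling. Cish measured 955, 1127 and 1042 in the 88h libraries, 549 and 510 in those of 96h, and 1000, 1024 and 956 in those of 104h. Of 22 immediate-early and AP-1 genes 6 were lower, among them Maff (-1.29), Fosl1 (-1.18) and Egr1 (-1.01), and 7 were lower without replicate 3 of 104h. Egr1 was not lower than both neighbours: it measured 416 and 375 at 96h, and 416 in replicate 3 of 104h, so the groups nearly touched. Of 18 circadian clock genes 4 were lower, Rora, Per1, Bhlhe41 and Nfil3. Lower than both neighbours singly were 2 STAT targets, 5 immediate-early and AP-1 genes and 3 clock genes. Over all genes 3.53% were lower, and 2.27% were lower than both neighbours.

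**Figure D3:**
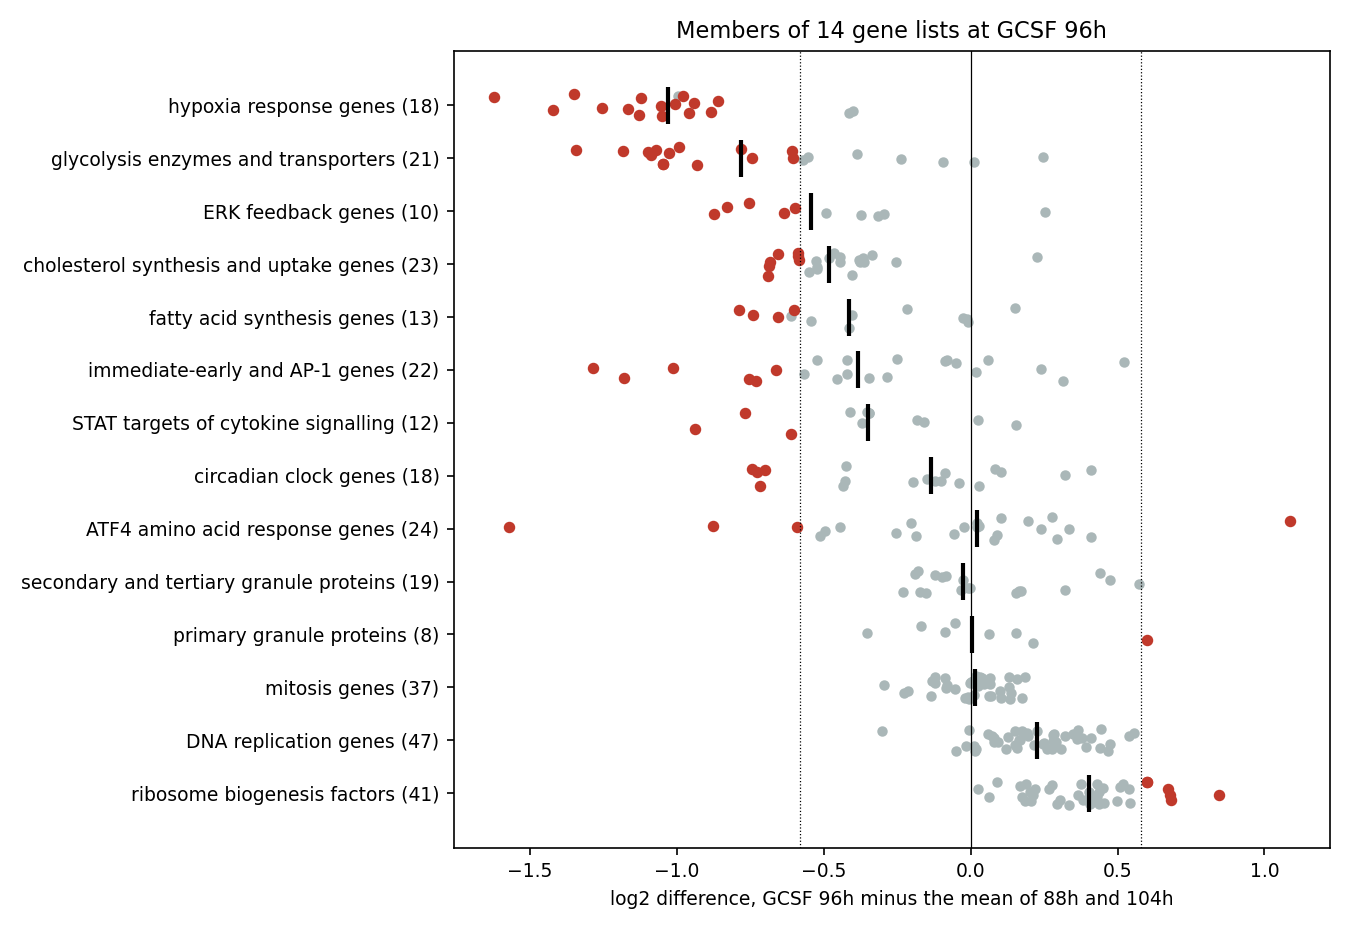
Log2 difference of GCSF 96h from the mean of 88h and 104h (horizontal axis) for each tested member of 14 gene lists, with the number of members in brackets. Red points passed the test, bars are list medians, and dotted lines mark the fold threshold; the hypoxia and glycolysis lists lie farthest to the left and ribosome biogenesis farthest to the right.

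Ribosome biogenesis factors were the list with the most calls upward by count, but not by share. Among 9 tested monocyte and macrophage markers 2 were higher, and over all genes 1.12% were. Of 41 factors 6 were higher and none was lower, and all 41 differences were above 0, with a median of 0.40. In 32 of them both 96h libraries lay above all 6 neighbours. Utp20, a component of the complex that processes small subunit RNA, measured 620, 615 and 676 in the 88h libraries, 1049 and 1155 in those of 96h, and 720, 577 and 490 in those of 104h (log2 difference 0.85, SE 0.09, limma adjusted p = 2.7e-14). The RNA helicase gene Ddx21 rose by 0.68 (SE 0.07). Of 47 DNA replication genes none was called (median 0.23), although 43 differences were above 0 and both 96h libraries lay above all 6 neighbours in 24, and without replicate 3 of 104h 1 gene, Tyms, was higher (0.59). None of 37 mitosis genes (median 0.02) was called.

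Few neutrophil granule and lineage genes passed the test. Over all genes 3.53% were lower and 1.12% higher, so these small counts do not set the lists apart. None of 19 genes of secondary and tertiary granule proteins was called (median -0.02), and of 8 primary granule genes Ms4a3 alone was higher (0.60, SE 0.10). The summed normalized count of 14 neutrophil lineage markers was 842221 to 864612 at 96h, 834561 to 878992 at 88h and 784377 to 936569 at 104h, with no marker at 0. That sum is carried by a few abundant genes. Of the 14 markers 1 was higher, Ly6g, at 33.1 and 21.6 in the 96h libraries against 9.23 to 18.8 in the other 6 (log2 difference 0.89, SE 0.32). Elane, the neutrophil elastase gene, had the lowest difference (-0.35, SE 0.07) and was under the fold required, with both 96h libraries below the other 6. The summed count of 13 monocyte and macrophage markers was 4091 to 4384 at 96h, 3118 to 3191 at 88h and 3946 to 4057 at 104h, with C1qb and C1qc among those at 0 in all 8 libraries. Of its 9 tested genes Adgre1 (1.05) and Siglec1 (0.92) were higher at 96h. The median of the 9 was 0.14, with 4 differences below 0, and none of the 9 was called higher than 104h. Siglec1 was not called without replicate 3 of 104h (limma adjusted p = 0.052). In bulk RNA, fewer cells of a type and less RNA per cell cannot be told apart, and the part of these markers in the results was not tested.

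Among genes whose normalized count averaged at least 50, the 12 largest changes in each direction were named by rule. The lowest was Col12a1, a collagen gene, with 727, 1005 and 921 in the 88h libraries, 156.2 and 154.98 in those of 96h, and 601, 612 and 334 in those of 104h (log2 difference -2.08, SE 0.22). Next came the copper transporter gene Atp7b (-1.96), Tmem119 (-1.91), the hormone gene Stc1 (-1.86) and Rgs11 (-1.76). Selenbp1, a selenium-binding protein gene, was the most abundant of these, with 20988, 20335 and 21461 in the 88h libraries, 8934 and 5759 in those of 96h, and 23052, 23191 and 23887 in those of 104h. Mgarp, Fgf11, Grb10, Scrt1 and Scara5 had log2 differences from -1.75 to -1.66. The pseudogene Rpl10a-ps1 (-1.75) is uncertain, since reads can be shared with its parent gene, and replicate 3 of 104h held 1978 against 439 and 517 in its mates.

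Rbm3, which encodes a cold-inducible RNA-binding protein, was the gene with the clearest rise. It measured 2484, 2420 and 2446 in the 88h libraries, 6719 and 6670 in those of 96h, and 2996, 2806 and 3790 in those of 104h (log2 difference 1.26, SE 0.06, limma adjusted p = 2.4e-37). Bhlha15, a transcription factor gene, had the highest difference (1.39, SE 0.20). Slc7a11, the cystine transporter (1.09), and Nqo1, a quinone reductase (1.07), are both known oxidative stress genes. However, of 15 listed oxidative stress response and pentose phosphate genes only 1 was higher, with a median of 0.15 and 4 differences below 0. Slc7a11, Adgre1 and Clec4a1 were not called against 104h, whose levels lay between those of 88h and 96h. The other genes named by rule were Zfp804a, Lipn, Pam16, Polr3d and Dpy19l3, with differences from 1.27 to 1.05. The mitochondrially encoded mt-Nd4l was the lowest of the 12 (1.05, SE 0.30). Of 13 mitochondrially encoded genes, a list chosen after values had been seen, 2 were higher, and 4 were higher without replicate 3 of 104h. All genes with a mitochondrial symbol, listed or not, took 1.58% and 1.59% of the counts at 96h. They took 1.10% to 1.27% at 88h and 1.19% to 1.97% at 104h, the last in replicate 3.

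The same comparison was then made at other times, each time point against those 8 h before and after it, to see where else these genes dipped. No library is shared between these comparisons and that at 96h. GCSF 48h and 144h, like 96h, came 8 h after a renewal, and 72h and 120h did not, being added after values had been seen. The library names of GCSF 120h carry another prefix than those of its neighbours, and what it stands for is not known here. Time and prefix cannot be told apart in the 120h comparison. At GCSF 48h, 33 genes were lower (0.189%) and 28 higher (0.161%), while 322 genes passed at 144h (1.07% of genes lower, 0.774% higher). At 72h 243 genes passed (1.19% lower, 0.201% higher), and at 120h 350 did (1.14% lower, 0.866% higher).

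The hypoxia response genes dipped at 72h as well as at 96h. At 72h 16 of the 18 were lower (median -0.79), at 120h 2 (median -0.33), and at 48h and 144h none (medians -0.10 and -0.19). P4ha2 had a mean normalized count of 663 ± 72.2 (SD, n = 3) at 72h, against 540 ± 173.3 (SD, n = 2) in the 96h libraries, and 1427 ± 136 (SD, n = 3) was found at 144h. The dip itself was compared by the difference of the differences. It was larger at 96h than at 48h in 15 of the 18 genes, than at 144h in 14, than at 120h in 10 and than at 72h in 1, Fam162a. For glycolysis genes the counts were 13, 9, 7 and 4 of 21, in the same order. Ribosome biogenesis medians were 0.33 at 72h and 0.31 at 120h, against 0.40 at 96h, with 1 and 4 factors higher. Cholesterol medians were -0.30 and -0.45, against -0.48, with 0 and 4 genes lower. In both lists no gene had a 96h difference that passed against that at 72h or 120h. The same held for clock genes, of which 5 were lower at 72h. Over all genes the 96h difference lay below that at 48h in 3.06% and above it in 1.06%, below that at 144h in 1.27% and above it in 0.333%, below that at 120h in 0.917% and above it in 0.201%, and below that at 72h in 0.579% and above it in 0.132%.

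**Figure D4:**
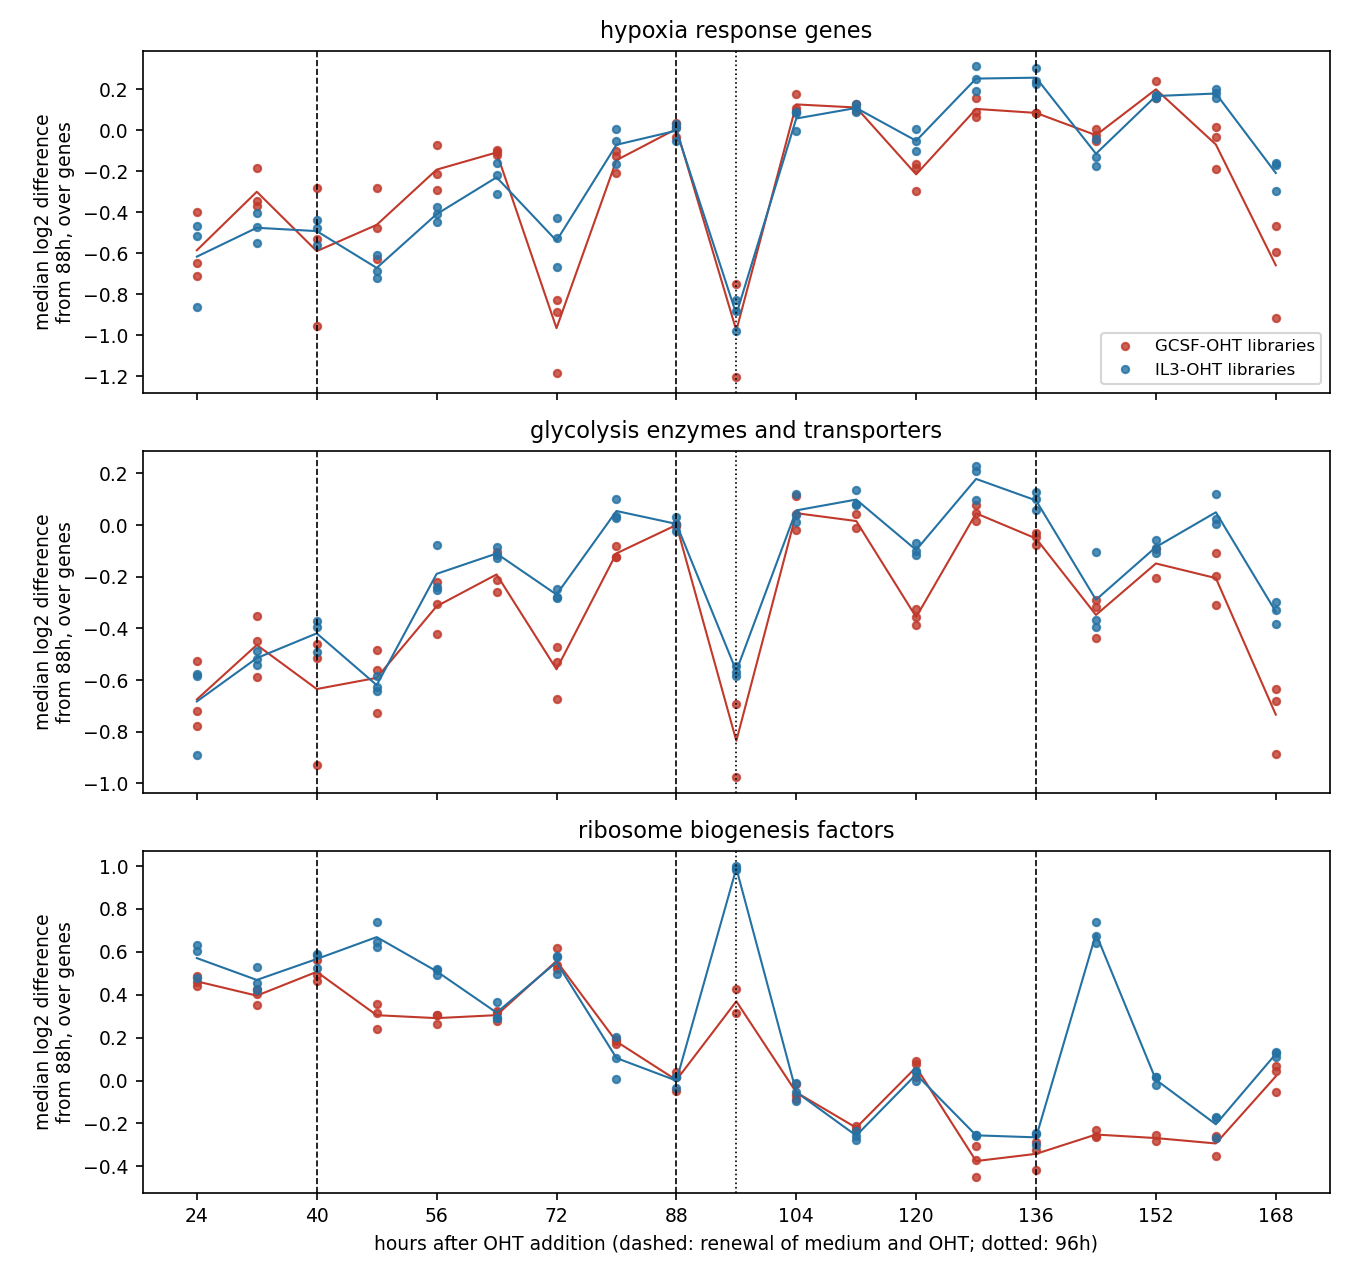
Median log2 difference from 88h of the same course over the members of 3 lists (vertical axes), for each library from 24h to 168h after OHT (horizontal axis), with lines through the group means. Dashed lines mark renewals and the dotted line 96h; the hypoxia median at GCSF 96h (-0.75 and -1.21) overlaps that at 72h (-0.83 to -1.18), at 168h (-0.47 to -0.92) and in 1 library of 40h (-0.96), and not that at 144h (-0.05 to 0.01).

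Genes lower at 96h were shared with other time points to different degrees. Genes also lower at 72h made up 24.2% of the 616 and 71.6% of those lower there. With 120h 84 genes were shared, which is 13.6% of the 616 and 42.2% of those lower there. With 144h 64 were shared (10.4% and 34.2%), and with 48h only 7 (1.14% and 21.2%). Across 10453 genes, which are not independent replicates, the log2 differences at 96h had a Pearson r of 0.60 with those at 72h, 0.62 with 120h, 0.57 with 144h and -0.05 with 48h.

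In the macrophage course the 96h sample departed from its neighbours in far more genes. The study's authors set these IL3-OHT 96h libraries aside, and they are used here only for comparison. At IL3 96h, 1424 genes were lower (8.17%) and 1632 were higher (9.36%). Of the 616 genes lower at GCSF 96h, 355 were also lower at IL3 96h (57.6%, and 24.9% of the 1424), while 10 were higher there. Of the genes higher at GCSF 96h, 94 were also higher at IL3 96h (48.2% of them, and 5.76% of the 1632).

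Hypoxia response genes fell in both courses at 96h. In IL3 13 of the 18 were lower (median -0.95), and the difference between courses passed in 3 of them, with Pdk1 and Ak4 lower in GCSF and Ero1l lower in IL3. For glycolysis genes 12 of 21 were lower in IL3, and 1 differed between courses. Ribosome biogenesis differed by course: 34 of 41 factors were higher at IL3 96h (median 1.06), and in 25 the rise was larger in IL3 than in GCSF. Likewise 19 of 23 cholesterol genes were lower at IL3 96h, and in 9 the fall was larger there. Of 10 ERK feedback genes 3 were higher and 2 lower at IL3 96h (median 0.07), and in 6 the difference was lower in GCSF than in IL3. Over all genes the GCSF difference lay below that of IL3 in 4.93% and above it in 2.83%.

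**Figure D5:**
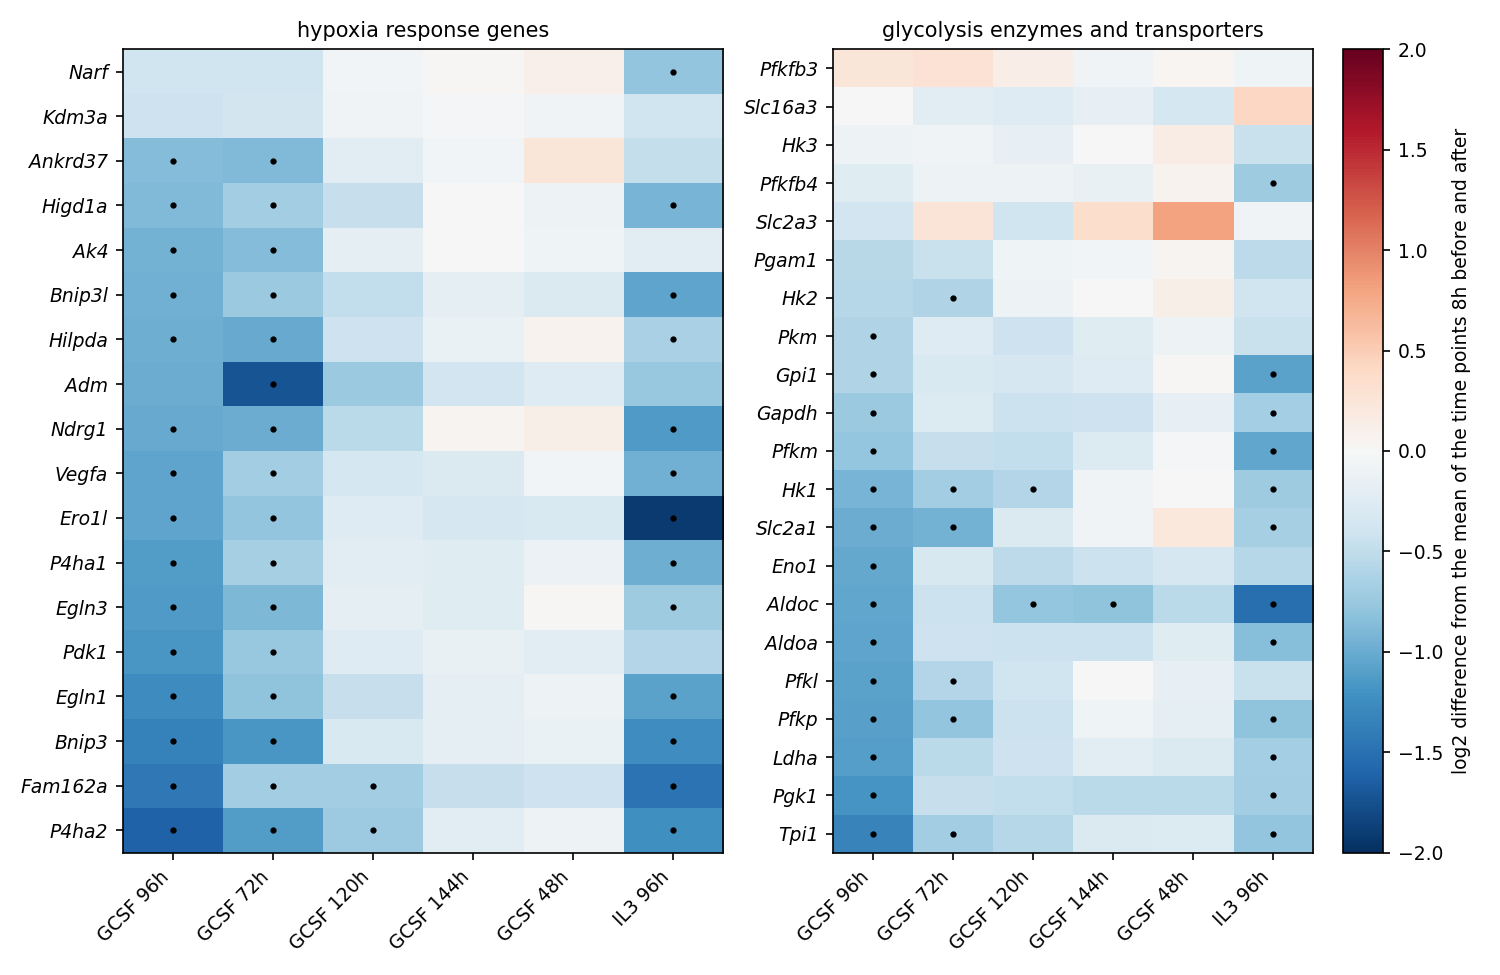
Log2 difference of each time point from the mean of the samples 8 h before and after it (colour, from -2 to 2) for the hypoxia and glycolysis genes in 5 GCSF time points and IL3 96h; dots mark genes that passed the test. Among the hypoxia genes the columns of GCSF 96h, GCSF 72h and IL3 96h are mostly blue, with 15, 16 and 13 dots, and none at GCSF 48h or 144h. Among the glycolysis genes the dots number 14 at GCSF 96h, 6 at 72h, 2 at 120h, 1 at 144h, 0 at 48h and 12 at IL3 96h.

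Whole profiles gave a comparison that depended on how genes were centred. With each gene standardised over the 27 GCSF-OHT time points, Pearson's r across genes was 0.056 for 88h with 96h, 0.12 for 96h with 104h, and 0.41 for the pair of neighbours. Standardised over all 56 groups of the series, the same values were 0.51, 0.54 and 0.68. The set to centre over was not settled in advance and 3 were computed. In each of them the neighbours were more alike than either was to 96h, but the size of r has no meaning apart from the centring, and it is given without a test.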

How the data were processed

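RNA-Seq of PUER cells (polyA libraries, paired 150-base reads) was quantified by the authors with Salmon on GRCm38 and scaled by DESeq2 median-of-ratios. How transcripts were summed to genes, and tool versions, are not given in the sources used here. The deposited values are thus normalized counts (a signal scaled between libraries); whole reads could be recovered from them for 100% of values. Groups came from the sample labels.

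Values were tested as log2(normalized count + 1) with limma 3.58.1 (R 4.3.3; trend, 1 mean for each of 56 groups, 165 libraries), on genes reaching 5 in at least 1 library. edgeR 4.0.16 and DESeq2 1.42.0 on the recovered reads, other pseudocounts, filters and samples, and each library left out were alternatives. The procedure was tested on simulated data. Genes named were the 12 largest changes each way among genes called with and without replicate 3 of 104h, with a mean of at least 50 and a symbol other than a Gm or Rik number, and list members. Lists and members were chosen with earlier results of these data known. The comparisons at 72h and 120h, the mitochondrial and HIF lists, the ACGTG search and 2 of 3 centrings of Pearson's r were added after values had been seen; r was first computed over the 27 GCSF time points, and that value was kept as the one reported. A count of 3 reads corresponds to a normalized count of 2.01 to 3.31 in the 8 libraries, for counting error only.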

Additional observations from a re-analysis of the deposited data

Results flagged for a closer look

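The difference of GCSF 96h from its neighbours was itself tested against the same difference at other time points and in the other course, and each result here passed that test (limma, adjusted p under 0.05 and an absolute log2 difference over 0.58). Against GCSF 48h, 4.11% of genes differed, among them 15 hypoxia response genes, 13 glycolysis genes, 7 cholesterol genes, 14 ribosome biogenesis factors and 19 of the genes named by rule. Against GCSF 72h, 0.711% of genes differed, with 1 hypoxia gene, 4 glycolysis genes and 11 named genes. Against GCSF 120h, 1.12% of genes differed, with 10 hypoxia genes, 7 glycolysis genes and 14 named genes. Against GCSF 144h, 1.60% of genes differed, with 14 hypoxia genes, 9 glycolysis genes, 1 ribosome biogenesis factor and 11 named genes. Against IL3 96h, 7.76% of genes differed, with 3 hypoxia genes, 1 glycolysis gene, 9 cholesterol genes, 25 ribosome biogenesis factors and 5 named genes. The causes were not tested.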

How the results depend on the processing

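No result reversed. Shares are of the genes tested under each setting. Fitting only the groups compared gave 0.671% of genes higher and 2.29% lower at 96h, 1.32% lower than both neighbours, 0.0344% between the neighbours, 0.774% at 144h, 1.34% at 120h, and 0.860%, 0.327% and 0.522% for the differences from 144h, 72h and 120h; fewer libraries then estimate the spread. With no filter 0.394% were higher than both neighbours, where more genes were tested. edgeR called 0.533% at 48h and DESeq2 1.20% at 120h; the cause was not tested. Leaving out each library in turn gave 0.247% to 1.42% between the neighbours, 0.648% to 1.21% higher at 96h, and 0.539% to 1.94%, 0.356% to 1.06% and 0.292% to 1.35% for the differences from 144h, 72h and 120h, each lowest without replicate 2 of 96h except the first. Pearson's r rested on its definition. Centred over the GCSF time points and both 0h groups it was 0.11 for 88h with 96h and 0.17 for 96h with 104h. Centred over all groups it was 0.51 and 0.54, and 0.68 for 88h with 104h. With the centring kept and a mean of at least 10 required, r for 88h with 104h was 0.57. With each library left out r ran from 0.0249 to 0.062 for 88h with 96h, 0.0552 to 0.129 for 96h with 104h, 0.253 to 0.476 for 88h with 104h. Among named genes, mt-Nd4l, Rpl10a-ps1, Pam16 and Zfp804a lost their call under at least 1 alternative.

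Replicate numbers were not taken to pair the samples, since not every same-numbered pair had a correlation of deviations over 0.1: it was -0.11, 0.20 and -0.05 for 88h with 104h, 0.20 and 0.12 for 88h with 96h, and 0.02 and 0.10 for 96h with 104h. With the replicate block 1.15% of genes were higher and 3.64% lower. Where 1 of the 2 libraries at 96h is left out, the lone library is assumed to vary like the other groups. Depth limits low genes such as Adm.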

Other observations

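In a list chosen after values had been seen, 12 of 13 other hypoxia-linked genes were lower at GCSF 96h, with a median log2 difference of -1.40. The list includes Stc1, Mgarp and Fgf11, already named above for their large falls, so its count is a description only and adds no support. Car9, a carbonic anhydrase of the cell surface, measured 3504, 3671 and 3751 in the 88h libraries, 1435 and 1131 in those of 96h, and 3355, 3726 and 3558 in those of 104h. The metallothionein gene Mt1 had a log2 difference of -0.79 (SE 0.11), and of 24 ATF4 amino acid response genes 3 were lower, among them Aldh1l2 (-1.57) and Ddit4 (-0.88), and 1, Slc7a11, was higher. None of 27 lysosomal hydrolase genes, 31 proteasome subunit genes or 19 aminoacyl-tRNA synthetase genes was called. Spi1, the gene whose product is fused in this line, had a log2 difference of 0.27 (SE 0.05) and was not called.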
